A study of Homo sapiens with 15 samples.

Results

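The insulin-like growth factor (IGF) axis was followed in HSSYII cells, a synovial sarcoma line that carries the SS18-SSX1 fusion. The axis was taken as 10 genes listed by symbol, of 25681 genes in the count tables: the ligands IGF1 and IGF2, the non-coding RNA H19, the receptors IGF1R and IGF2R, and the binding proteins IGFBP2, IGFBP3, IGFBP4, IGFBP5 and IGFBP6. Where a symbol had several transcript rows, the row with the highest summed count was used. RNA-seq counts came from 15 libraries in 5 groups of 3. In the first experiment cells received 100 nM dBRD9A, a degrader of the BRD9 protein, or DMSO for 6 hr. In the second, cells carried the lentiviral hairpin shSS18-SSX1-1 or shSS18-SSX1-2, both against the fusion, or the control hairpin shRenilla. These were grown for 96 hr after infection at an MOI of 1.0 with no drug selection, so that the cultures may hold cells that took up no virus. All cells came from 1 line and carried the fusion gene. The 2 experiments ask what follows degradation of a subunit of the fusion-bearing chromatin remodelling complex and reduction of the fusion transcript. The labels do not say whether the 3 libraries of a group came from separate cultures, so a p-value here speaks only of the spread among libraries, part of which may be technical.

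IGF1 and IGF2 are secreted ligands that act through IGF1R, a tyrosine kinase receptor that signals through insulin receptor substrates, PI3K and AKT. IGF2R binds IGF2 and carries it to lysosomes, so it clears the ligand. IGFBPs hold the ligands outside the cell, where they lengthen ligand life or keep it from the receptor, and proteases release the ligand by cutting them. IGF2 and H19 are neighbouring imprinted genes, IGF2 being read from the paternal and H19 from the maternal copy in most tissues. In synovial sarcoma, IGF2 and IGF1R have long been studied as growth factor and receptor.

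Total counts per library were 18580419 to 27031647 (median 22382782). Within a group they ran from 22584741 to 24710719 with dBRD9A, the narrowest range, and from 20473132 to 27031647 with shRenilla, the widest. The hairpins lowered the target, since SSX1 averaged 20.1 ± 1.22 CPM with shSS18-SSX1-1, 28.7 ± 0.737 CPM with shSS18-SSX1-2 and 63.6 ± 11.8 CPM with shRenilla (SD, n = 3 each). CPM are counts per library scaled to a common total after TMM scaling, a method that takes most genes to be level. BRD9 mRNA averaged 93.2 ± 3.49 CPM with dBRD9A and 88.5 ± 2.96 CPM with DMSO, and does not check the labels because the compound removes the protein. Replicate 1 of shRenilla stood apart from replicates 2 and 3, with chi-square values of 36.5 and 27.0 per degree of freedom, against at most 9.85 for any other pair within a group. Leaving this library out left 8 members higher after knockdown and none lower, the same counts as with it. H19 and IGFBP5 are among the 8, but passed the filter on low counts only through the hairpin libraries, so their calls carry no weight. With any 1 library left out, 3056 to 3551 of all genes were higher after knockdown and 2471 to 3133 lower.

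Sequences are shown for the members that moved furthest. The 250 bases before the start of IGFBP3, IGFBP4, IGFBP5 and IGFBP6 are given because these 4 binding protein genes had few reads with shRenilla and more with both hairpins. They are from RefSeq (table of GRCh38.p14), placed by exact match on GRCh37, and read 5′ to 3′ on the strand of the gene. The start is that of the RefSeq entry. For IGFBP3 it lies inside the GENCODE gene given below, so that the whole window is within that gene, and for IGFBP6 most of the window is. For IGFBP4 and IGFBP5 the window ends where the GENCODE gene begins. Capitals mark TATANA and GGGCGG, searched on both strands, so that GGGCGG may appear as CCGCCC.
IGFBP3, chr7:45960872-45961121, minus strand: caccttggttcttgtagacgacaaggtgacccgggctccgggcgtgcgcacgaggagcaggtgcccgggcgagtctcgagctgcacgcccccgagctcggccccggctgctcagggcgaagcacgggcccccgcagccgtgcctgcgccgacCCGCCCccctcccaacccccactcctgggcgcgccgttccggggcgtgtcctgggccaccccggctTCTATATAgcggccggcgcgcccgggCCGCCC
IGFBP4, chr17:38599452-38599701, plus strand: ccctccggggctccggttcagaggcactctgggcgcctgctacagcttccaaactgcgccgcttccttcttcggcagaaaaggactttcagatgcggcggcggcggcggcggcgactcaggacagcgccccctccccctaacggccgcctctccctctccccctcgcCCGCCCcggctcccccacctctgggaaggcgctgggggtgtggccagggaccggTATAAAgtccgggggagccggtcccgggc
IGFBP5, chr2:217560273-217560522, minus strand: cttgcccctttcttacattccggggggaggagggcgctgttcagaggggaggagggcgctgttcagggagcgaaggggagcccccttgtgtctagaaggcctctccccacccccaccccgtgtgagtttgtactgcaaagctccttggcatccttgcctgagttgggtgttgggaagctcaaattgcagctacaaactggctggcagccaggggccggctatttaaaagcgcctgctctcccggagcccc
IGFBP6, chr12:53491201-53491450, plus strand: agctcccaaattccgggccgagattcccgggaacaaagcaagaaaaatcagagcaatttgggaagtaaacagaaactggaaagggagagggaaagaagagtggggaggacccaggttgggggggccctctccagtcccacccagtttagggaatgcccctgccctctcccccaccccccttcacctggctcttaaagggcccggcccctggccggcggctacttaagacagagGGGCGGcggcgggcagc
IGFBP3 holds 2 TATANA matches that overlap each other, with first bases 32 and 30 before the start, and 2 GGGCGG matches. IGFBP4 holds 1 TATANA match, first base 29 before the start, and 1 GGGCGG match. IGFBP6 holds 1 GGGCGG match and no TATANA, and IGFBP5 holds neither. Of 35116 RefSeq windows of the same length, 17.7% hold TATANA and 42.6% hold GGGCGG. The AP-1 type motif TGANTCA, found in 6.57% of windows, is in none of the 4. CG pairs number 32 in the IGFBP3 window, 24 in IGFBP4, 9 in IGFBP6 and 8 in IGFBP5, and no motif of the 3 is in all 4 windows.

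H19 is also the host of a microRNA, and its arms are shown because reads over the hairpin changed with H19. The seed, bases 2 to 8, is in capitals. The sequences are RefSeq's, placed on GRCh37.
hsa-miR-675-5p, chr11:2018030-2018052, minus strand: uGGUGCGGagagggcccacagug
hsa-miR-675-3p, chr11:2017998-2018017, minus strand: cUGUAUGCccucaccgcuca
The arms have different seeds. The hairpin lies within an exon of 13 of 31 annotated H19 transcripts.

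On GRCh37 (GENCODE 44 mapped to that build), IGF2 lies on chromosome 11 from 2150342 to 2179621 and H19 on the same strand from 2016396 to 2025782, 124559 bases away. IGFBP2 (chromosome 2, 217497551 to 217529159) and IGFBP5 (217536828 to 217560272) point in opposite directions with 7668 bases between them. The other members lie elsewhere, IGF1 on chromosome 12 from 102789652 to 102875522, IGF1R on 15 from 99191768 to 99507759, and IGF2R on 6 from 160390114 to 160534539. IGFBP3 is on 7 from 45951844 to 45961473, IGFBP4 on 17 from 38599702 to 38613977, and IGFBP6 on 12 from 53491220 to 53496129. The counts are of reads over exons of each transcript.

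Knockdown of SS18-SSX1 raised most of the axis. Of 9 members tested, 8 were higher with the hairpins than with shRenilla (edgeR's quasi-likelihood test, adjusted p under 0.05 over all genes), none was lower and IGF1R did not pass. Of all 14269 genes tested, 44.6% were called in either direction (22.5% higher), and 12.5% were higher by more than 1.5-fold, as were 6 members, and 22.1% were lower. Taken singly, shSS18-SSX1-1 raised 8 members (of all genes 41.5% called, 22% higher) and shSS18-SSX1-2 raised 7 (34.2% called, 18.3% higher), IGF2R being the one that did not pass. H19 and IGFBP5 passed the filter on low counts only through the hairpin libraries, so they had to differ and their calls carry no weight. Of the 7 other members tested, 6 were higher, with a median log2 fold change of 0.59, that of IGF2, against -0.01 for all genes. IGF1 was not tested. 

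dBRD9A at 6 hr moved fewer members, and by less. Of 7 tested, IGF2 and IGFBP3 were higher and IGF2R was lower than with DMSO, and IGF1R, IGFBP2, IGFBP4 and IGFBP6 did not pass. Here 35.9% of 13652 genes were called in either direction, 17.7% higher and 18.2% lower, so the members' count of 3 is near the background. The median log2 fold change was 0.06 for the members and 0.01 for all genes. H19, IGFBP5 and IGF1 did not pass the filter on low counts. The count tables hold no spike-in rows, and TMM cannot show a change shared by all genes. With the dBRD9A libraries moved down by 0.2 on the log2 scale, a value chosen to show the effect of such a change, IGFBP3 was the only member higher, and IGF2R, IGF1R and IGFBP2 were lower.

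**Figure D1:**
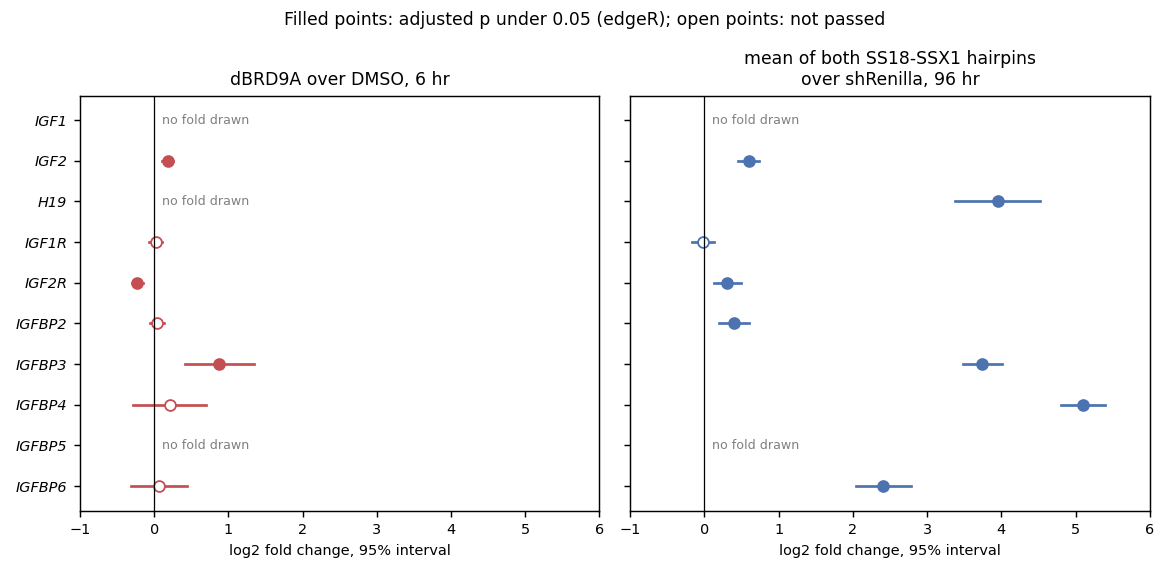
Log2 fold change of each member with its 95% interval, for dBRD9A over DMSO (left) and the mean of both SS18-SSX1 hairpins over shRenilla (right). Filled points passed an adjusted p under 0.05, and no fold is drawn for genes that were not tested or had no count in the control. IGFBP4 reached 5.10 after knockdown and 0.21 with dBRD9A.

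Of the ligands, IGF1 had no read in any of the 15 libraries. A count of 0 allows up to 0.00884 CPM over all of them, and 0.0418 to 0.0462 CPM in a single group, covering counting error only. IGF1 RNA was thus not detectable at this depth in any condition.

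IGF2 was the only ligand with reads, and both hairpins raised it. It had 566, 549 and 517 CPM with shSS18-SSX1-1, and 518, 485 and 510 CPM with shSS18-SSX1-2, against 340, 323 and 366 CPM with shRenilla. Every hairpin library lay above every control library. The log2 fold change after knockdown was 0.59 (standard error 0.0647, edgeR adjusted p = 4.62e-06), with 0.66 for shSS18-SSX1-1 and 0.53 for shSS18-SSX1-2. The hairpins did not differ in IGF2 beyond their spread (-0.13, 95% interval -0.29 to 0.02, edgeR adjusted p = 0.755).

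With dBRD9A, IGF2 had 190, 203 and 190 CPM, against 174, 176 and 167 CPM with DMSO. The groups did not overlap, and the difference was small, 0.18 on the log2 scale (standard error 0.0343, edgeR adjusted p = 9.72e-05). It was not past the threshold when all 15 libraries were fitted together (edgeR adjusted p = 0.0664), and with dBRD9A moved down by 0.2 its sign turned (-0.02, edgeR adjusted p = 0.671). By level, the groups ran from shSS18-SSX1-1 and shSS18-SSX1-2 through shRenilla and dBRD9A to DMSO. Cells with shRenilla averaged 343 ± 21.8 CPM and cells with DMSO 172 ± 4.86 CPM (SD, n = 3 each), but virus, culture time and experiment cannot be told apart in that difference.

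The table counts IGF2 in several overlapping transcript rows, and the row used, NM_000612, has the most reads. Its reads are shared with the row of INS-IGF2, a readthrough gene, so the values of that row are not independent. NM_000612 counted slightly more reads than NM_001007139, another IGF2 transcript, and this net excess was looked at after its values had been seen. As a share of the IGF2 count it was 1.38, 0.964 and 1.04% with shSS18-SSX1-1 and 1.40, 1.02 and 1.30% with shSS18-SSX1-2, against 2.99, 2.55 and 2.38% with shRenilla. All 6 hairpin libraries lay below all 3 control libraries. The mean was 1.18 ± 0.198% with the hairpins (n = 6) and 2.64 ± 0.314% with shRenilla (n = 3). In CPM the excess was 6.21 ± 1.19 with the hairpins and 9.04 ± 0.993 with shRenilla (SD), while the gene as a whole rose. No test is given, because the measure was chosen on these values. With dBRD9A the share was 2.89, 3.07 and 2.98%, against 2.32, 2.94 and 2.65% with DMSO, and those groups overlapped.

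H19 was close to absent without knockdown. It had 143, 136 and 155 counts with shSS18-SSX1-1 and 196, 247 and 186 with shSS18-SSX1-2, against 20, 2 and 13 with shRenilla. No hairpin library came near a control library, and the control libraries themselves were uneven. Summed over libraries, the hairpins gave 1063 counts and shRenilla 35, a ratio, corrected for depth, of 16.0 (95% exact interval 11.4 to 23.1, counting error only). The fitted log2 fold change was 3.95, given with no test because of the filter, and ran from 3.50 to 4.49 with a library left out. H19 was 0.46 higher with shSS18-SSX1-2 than with shSS18-SSX1-1 (95% interval 0.05 to 0.88), which did not pass over all genes (edgeR adjusted p = 0.524). In the other experiment, H19 had 0, 2 and 3 counts with dBRD9A and 2, 3 and 0 with DMSO, and did not pass the filter.

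Reads over the hairpin of miR-675 followed the host. MIR675 had 18, 17 and 7 counts with shSS18-SSX1-1 and 10, 20 and 20 with shSS18-SSX1-2, against 1, 0 and 0 with shRenilla, and none with dBRD9A or DMSO. MIR675 passed the filter on low counts only through the hairpin libraries, so it had to differ. The groups did not overlap, and the ratio of 48.5 (95% exact interval 8.49 to 1935) rests on a single control count. These are reads of the longer RNA over the hairpin, and the mature arms shown above were not measured. IGF2-AS, on the strand opposite IGF2, went the other way, with a log2 fold change of -0.53 after knockdown (edgeR adjusted p = 0.0114). Taken alone, shSS18-SSX1-2 passed (-0.68, edgeR adjusted p = 0.0101) and shSS18-SSX1-1 did not (-0.38, edgeR adjusted p = 0.0973), and the difference between them did not pass either (-0.29, edgeR adjusted p = 0.850). Its levels were low, 2.08 ± 0.221 CPM with shSS18-SSX1-1, 1.71 ± 0.259 CPM with shSS18-SSX1-2 and 2.68 ± 0.306 CPM with shRenilla (SD, n = 3 each). How the counting treated strand is not stated, so reads of IGF2-AS and IGF2 where they overlap cannot be told apart.

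IGF1R, the signalling receptor, did not pass the test in either experiment. It had 77.4, 71.4 and 67.7 CPM with shSS18-SSX1-1 and 74.8, 69.2 and 74.3 CPM with shSS18-SSX1-2, against 74.5, 69.6 and 73.8 CPM with shRenilla. The 3 groups overlapped throughout, and the 95% interval of the log2 fold change after knockdown ran from -0.16 to 0.13 around -0.02 (edgeR adjusted p = 0.840). With dBRD9A it had 56.2, 54.3 and 56.7 CPM, against 56.2, 53.4 and 56.0 CPM with DMSO, with an interval of -0.07 to 0.11 around 0.02 (edgeR adjusted p = 0.740). That value rests on TMM scaling, and with dBRD9A moved down by 0.2 it was -0.18 (edgeR adjusted p = 0.000605). Antisense genes overlap IGF1R and IGF2R, and their reads cannot be separated without strand.

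IGF2R, the clearance receptor, moved in opposite directions in the 2 experiments. It had 207, 192 and 170 CPM with shSS18-SSX1-1 and 187, 176 and 168 CPM with shSS18-SSX1-2, against 125, 156 and 159 CPM with shRenilla. The groups did not overlap, although the gap was narrow, and the log2 fold change after knockdown was 0.31 (standard error 0.0853, edgeR adjusted p = 0.00968). Taken alone, shSS18-SSX1-1 passed (0.37, edgeR adjusted p = 0.00799) and shSS18-SSX1-2 did not (0.25, edgeR adjusted p = 0.0654), but the difference between the hairpins itself was -0.12 (95% interval -0.33 to 0.09). The value for shSS18-SSX1-2 passed without shRenilla replicate 2 (edgeR adjusted p = 0.0332), shRenilla replicate 3 (0.0404) or shSS18-SSX1-1 replicate 3 (0.0463), and with all libraries under upper quartile scaling (0.0401), no filter (0.0363) or DESeq2 (0.0465). With other libraries left out its adjusted p reached 0.179. With dBRD9A, IGF2R had 128, 126 and 133 CPM, against 158, 145 and 153 CPM with DMSO. These groups did not overlap either, and the log2 fold change of IGF2R was -0.23 (standard error 0.0365, edgeR adjusted p = 9.57e-06). In the fit of all 15 libraries this change did not pass (edgeR adjusted p = 0.0825).

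Among the binding proteins, IGFBP2 was the most abundant per length in every group and changed least after knockdown. It had 190, 210 and 188 CPM with shSS18-SSX1-1 and 193, 183 and 194 CPM with shSS18-SSX1-2, against 168, 119 and 148 CPM with shRenilla. The groups did not overlap, and the log2 fold change was 0.39 (standard error 0.0932, edgeR adjusted p = 0.00348). It was 0.43 for shSS18-SSX1-1 and 0.36 for shSS18-SSX1-2, and without replicate 3 of shSS18-SSX1-2 the value for that hairpin did not pass (edgeR adjusted p = 0.0544). With dBRD9A it had 75.1, 74.5 and 69.0 CPM, against 67.6, 76.6 and 69.7 CPM with DMSO. Those groups overlapped (0.04, 95% interval -0.06 to 0.13, edgeR adjusted p = 0.561).

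IGFBP4, which holds IGF2 away from its receptor until the protease PAPPA cuts it, rose more than any other member with reads in all shRenilla libraries. It had 1708, 1545 and 2210 counts with shSS18-SSX1-1 and 1693, 2338 and 1518 with shSS18-SSX1-2, against 73, 41 and 53 with shRenilla. Every hairpin library was far above every control library. The mean level was 83.9 ± 6.68 CPM with shSS18-SSX1-1, 82.3 ± 8.48 CPM with shSS18-SSX1-2 and 2.39 ± 0.484 CPM with shRenilla (SD, n = 3 each). On the log2 scale IGFBP4 rose by 5.10 (standard error 0.137, edgeR adjusted p = 5.13e-12). The log2 fold change was 5.12 for shSS18-SSX1-1 and 5.07 for shSS18-SSX1-2, and their difference was -0.05 (95% interval -0.27 to 0.18). With dBRD9A, IGFBP4 had 27, 38 and 21 counts, against 22, 22 and 25 with DMSO, and those groups overlapped (0.21, edgeR adjusted p = 0.532).

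IGFBP3, the main carrier of IGFs in blood, moved the same way in both experiments. It had 466, 410 and 549 counts with shSS18-SSX1-1 and 640, 822 and 501 with shSS18-SSX1-2, against 47, 45 and 37 with shRenilla. The log2 fold change was 3.75 (standard error 0.122, edgeR adjusted p = 3.63e-11). The value was 3.94 with shSS18-SSX1-2 and 3.55 with shSS18-SSX1-1, a difference of 0.39 (95% interval 0.17 to 0.60) that did not pass over all genes with edgeR (adjusted p = 0.162) and just passed with DESeq2 (adjusted p = 0.0496). With dBRD9A, IGFBP3 had 34, 43 and 34 counts, against 22, 19 and 15 with DMSO. The groups did not overlap at these low counts, 1.54 ± 0.154 CPM with dBRD9A and 0.841 ± 0.135 CPM with DMSO (SD, n = 3 each), and the log2 fold change was 0.88 (standard error 0.229, edgeR adjusted p = 0.00312). This was the only member past 1.5-fold with dBRD9A, where 2.23% of all genes were higher by as much.

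IGFBP6, a binding protein that prefers IGF2 over IGF1, rose by 2.41 on the log2 scale after knockdown (standard error 0.175, edgeR adjusted p = 8.97e-08). It had 342, 308 and 447 counts with shSS18-SSX1-1 and 405, 460 and 364 with shSS18-SSX1-2, against 117, 44 and 68 with shRenilla. The control libraries were uneven, replicate 1 being the highest, and still below every hairpin library. With dBRD9A it had 42, 48 and 49 counts, against 33, 46 and 45 with DMSO, and those groups overlapped (0.06, 95% interval -0.32 to 0.44, edgeR adjusted p = 0.834).

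IGFBP5, which binds extracellular matrix as well as IGFs, stayed the rarest of the binding proteins. It had 12, 13 and 11 counts with shSS18-SSX1-1 and 15, 17 and 7 with shSS18-SSX1-2, against 0 in all 3 shRenilla libraries. The 75 counts of the hairpins made it at least 13.2-fold higher, taking 3 counts over the shRenilla group as the upper limit of 0, again with no test because of the filter. The shRenilla libraries with no IGFBP5 read held 119 to 168 CPM of its neighbour IGFBP2. With dBRD9A there were 1, 0 and 0 counts and with DMSO 1, 0 and 2.

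The make-up of the binding proteins shifted away from IGFBP2 after knockdown. IGFBP2 to IGFBP6 were set side by side per kilobase of their canonical transcripts. They summed to 203 ± 9.29 CPM per kilobase with shSS18-SSX1-1 and 202 ± 0.0723 with shSS18-SSX1-2, against 108 ± 18.8 with shRenilla (SD, n = 3 each). IGFBP2 made up 68.3 ± 2.24% of that sum with shSS18-SSX1-1 and 66.4 ± 2.31% with shSS18-SSX1-2, against 95.2 ± 0.535% with shRenilla. IGFBP4 made up 18.8 ± 1.40% with shSS18-SSX1-1 and 18.4 ± 1.89% with shSS18-SSX1-2, against 1.00 ± 0.0539% with shRenilla. IGFBP6 made up 8.77 ± 0.722% with shSS18-SSX1-1 and 9.60 ± 0.150% with shSS18-SSX1-2, against 3.08 ± 0.679% with shRenilla. With dBRD9A IGFBP2 held 94.2 ± 0.514% of 54.7 ± 2.31 CPM per kilobase, against 94.8 ± 0.636% of 53.2 ± 3.46 with DMSO. IGFBP2 made up most of the sum in every group. On the same scale IGF2 was at 97.5 ± 4.49 CPM per kilobase with shSS18-SSX1-1, 90.3 ± 3.05 with shSS18-SSX1-2 and 61.5 ± 3.90 with shRenilla. IGF2R was lower than IGF2 in each of these groups, at 13.5 ± 1.32 with shSS18-SSX1-1, 12.6 ± 0.664 with shSS18-SSX1-2 and 10.4 ± 1.30 with shRenilla, and IGF1R lower again, at 5.90 ± 0.398, 5.95 ± 0.255 and 5.94 ± 0.214 in those 3 groups.

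**Figure D2:**
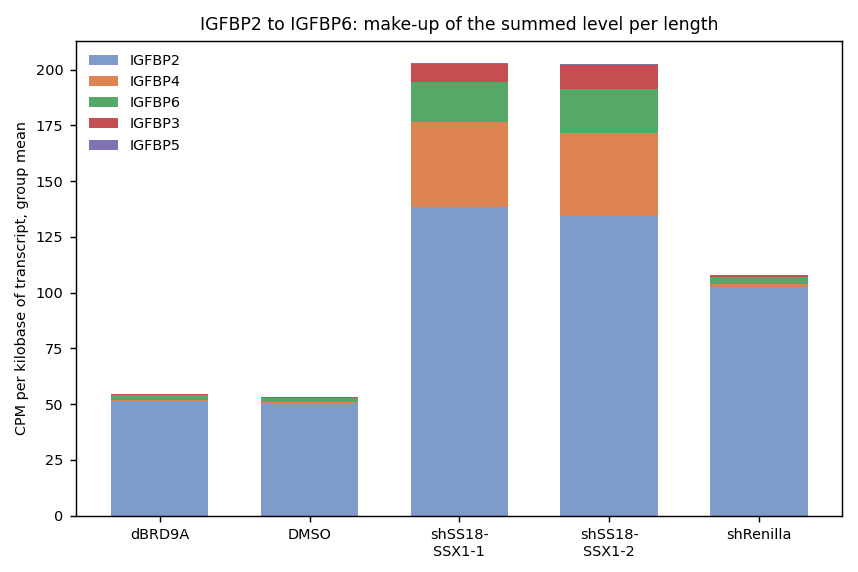
Group means of IGFBP2 to IGFBP6, in CPM per kilobase of transcript, stacked for each of the 5 groups (y axis from 0, n = 3 libraries each). The sum is 203 and 202 with the SS18-SSX1 hairpins and 108 with shRenilla, and IGFBP2 takes about all of the bar in the 3 other groups. IGFBP5 is too low to be seen.

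Whether dBRD9A and knockdown differed in effect was tested with the 15 libraries fitted together. Leaving aside H19 and IGFBP5, which entered only through the hairpin libraries and had at most 3 counts in any dBRD9A or DMSO library, the dBRD9A effect was below the knockdown effect for 6 of 7 members, where 36.6% of 14560 genes differed in either direction, 17.5% being higher and 19% lower. IGFBP4 differed by -4.91 (edgeR adjusted p = 2.08e-09), IGFBP3 by -2.89 (adjusted p = 9.12e-08) and IGFBP6 by -2.37 (adjusted p = 4.97e-06), on the log2 scale. IGF2R differed by -0.56 (edgeR adjusted p = 0.000644), IGF2 by -0.43 (adjusted p = 0.00024) and IGFBP2 by -0.38 (adjusted p = 0.0215), and IGF1R did not differ beyond its error (0.02, adjusted p = 0.889). IGFBP2 lost its call without DMSO replicate 2 (edgeR adjusted p = 0.0704) or dBRD9A replicate 3 (0.0629). Treatment time (6 hr and 96 hr), agent and delivery differ together between the experiments, so their parts cannot be told apart. No member differed between the hairpins with edgeR, among 0.147% of genes that did.

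Markers of other cell types moved with the knockdown. The 9 fibroblast markers summed to 880 to 926 CPM with shSS18-SSX1-1 and 1063 to 1107 CPM with shSS18-SSX1-2, against 231 to 287 CPM with shRenilla, where DCN, LUM and FAP were at 0. COL1A1, a collagen chain, rose by 7.13 and COL3A1 by 4.79 on the log2 scale, while COL1A2, the partner chain of COL1A1, averaged 0.0890 CPM over all libraries. The 8 epithelial markers summed to 65.6 to 68.4 CPM with shSS18-SSX1-1 and 134 to 160 CPM with shSS18-SSX1-2, against 0.0484 to 0.642 CPM with shRenilla. The 8 skeletal muscle markers reached 16.4 to 23.1 CPM with the hairpins, against 3.05 to 3.66 CPM with shRenilla, with MYOG and MYF5 at 0 in all 3 groups. Lists at low levels also differed. The endothelial list summed to 0.997 to 2.00 CPM with the hairpins, against 0.264 to 0.404 CPM with shRenilla, with CDH5 and KDR at 0 throughout. The leukocyte list summed to 6.16 to 7.64 CPM with the hairpins, against 3.10 to 5.51 CPM with shRenilla, and the hepatocyte list to 0.630 to 1.24 CPM, against 0.269 to 0.528 CPM with shRenilla. The adipocyte list overlapped, at 0.324 to 0.589 CPM with the hairpins and 0.290 to 0.404 CPM with shRenilla. The 8 markers of the line itself summed to 980 to 1050 CPM with the hairpins and 1133 to 1172 CPM with shRenilla. They include SSX1 and SS18, joined in the fusion that the hairpins target, so part of the fall was built in. In bulk RNA, fewer cells of a type and less RNA per cell cannot be told apart, and the part of these changes in the members' results was not tested. With dBRD9A the fibroblast list summed to 299 to 311 CPM, against 322 to 349 CPM with DMSO, and the epithelial list stayed under 0.4 CPM in both. Of 5 fibroblast markers tested, 2 were lower and 1, COL1A1, was higher (0.69 on the log2 scale). The list of line markers summed to 1091 to 1139 CPM with dBRD9A, against 1191 to 1224 CPM with DMSO. Of these 8 markers 3 were lower, 0 higher and 5 did not pass, where 18.2% of all genes were lower and 17.7% higher. Their median log2 fold change was 0.03 (all genes 0.01), so the sum does not stand for each marker.

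Other genes of the pathway were read from lists chosen with earlier results known. Counts below are to be read against all genes, of which 22.5% were higher and 22.1% lower after knockdown, and 17.7% higher and 18.2% lower with dBRD9A. Among further IGF genes, 4 were tested and 3 were higher after knockdown (22.5% of all genes). INS-IGF2 is among the 3, but it shares its reads with the member IGF2 and is not independent of it. IGFBP7, a related protein with weak IGF affinity, had 13.1, 12.0 and 15.2 CPM with shSS18-SSX1-1 and 14.3, 18.3 and 12.4 CPM with shSS18-SSX1-2, against 2.11, 2.69 and 2.13 CPM with shRenilla (2.61, edgeR adjusted p = 2.14e-08). Its antisense partner IGFBP7-AS1 had 25, 39 and 35 counts with shSS18-SSX1-1 and 47, 54 and 50 with shSS18-SSX1-2, against 2, 1 and 1 with shRenilla. IGFBP7-AS1 passed the filter on low counts only through the hairpin libraries, so it had to differ, and its fitted value of 4.87 carries no weight. Overlapping reads of IGFBP7 and IGFBP7-AS1 cannot be separated. IGFBPL1 rose by 1.60. INSR, the insulin receptor, which also binds IGF2, had 90.5, 92.8 and 89.0 CPM with dBRD9A, against 102, 103 and 97.5 CPM with DMSO (-0.15, edgeR adjusted p = 0.00301), and after knockdown its value was 0.04 (edgeR adjusted p = 0.712).

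All 4 tested genes of IGFBP proteolysis were higher after knockdown (22.5% of all genes), and 3 of the 4 with shSS18-SSX1-2 alone (18.3% of all genes). HTRA1, a serine protease that cuts IGFBPs, rose by 4.59, PRSS23 by 1.39 and the lysosomal protease CTSD by 0.24. HTRA1 did not pass the filter on low counts with dBRD9A. Whether it passed in the knockdown fit only through the hairpin libraries was not checked, so its call may carry no weight in that count. STC2, which inhibits the IGFBP4 protease PAPPA, rose by 2.20, while PAPPA itself averaged 0.156 CPM and was not tested. With dBRD9A, CTSD alone of 3 tested passed, at 0.13 on the log2 scale (edgeR adjusted p = 0.0457), a call lost under RLE scaling and turned to -0.07 with dBRD9A moved down by 0.2.

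Downstream of the receptor, 31 adaptor and PI3K-AKT pathway genes were tested. After knockdown 10 were higher and 2 lower (22.5% and 22.1% of all genes), with a median log2 fold change of 0.16 (all genes -0.01). The lowest p-values were those of SOCS2, a feedback inhibitor of cytokine signalling (0.65, edgeR adjusted p = 6.47e-06), PIK3R3, a regulatory subunit of PI3K (0.72, 8.23e-06), RPS6KB1, the S6 kinase (0.51, 1.4e-05), and the transcription factor FOXO4 (0.60, 1.93e-05). With dBRD9A 3 were higher and 10 lower (17.7% and 18.2% of all genes). FOXO1, which AKT keeps out of the nucleus, was higher in both, by 1.01 with dBRD9A (edgeR adjusted p = 1.51e-08) and by 0.99 after knockdown (edgeR adjusted p = 2.82e-05). With dBRD9A moved down by 0.2, 1 of the 31 was higher, FOXO1, and 27 were lower.

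**Figure D3:**
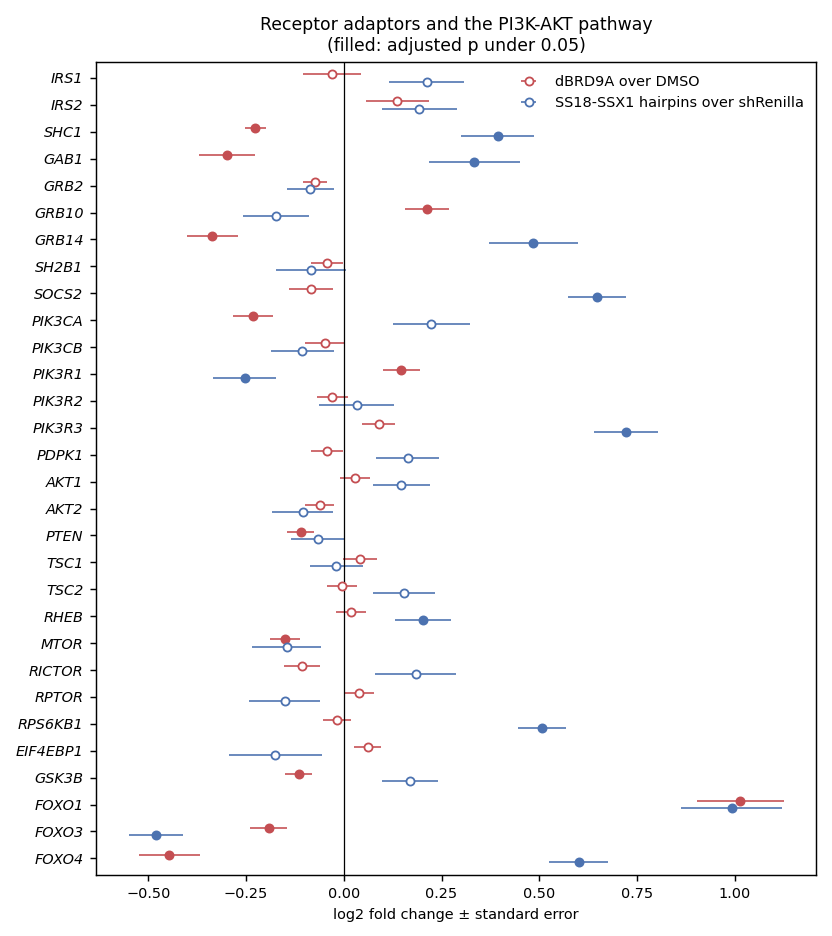
Log2 fold change ± standard error (x axis) of 30 of the 31 adaptor and PI3K-AKT pathway genes for dBRD9A over DMSO and for the SS18-SSX1 hairpins over shRenilla. Filled points passed an adjusted p under 0.05. Of those drawn, 3 are higher and 9 lower with dBRD9A, 9 are higher and 2 lower after knockdown, and FOXO1 lies near 1 in both.

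Of 12 tested genes that FOXO factors activate, 8 were higher and 1 lower after knockdown (22.5% and 22.1% of all genes), with a median of 0.75. BCL6, a transcriptional repressor, rose by 2.38 (edgeR adjusted p = 5.88e-10), PIK3IP1, an inhibitor of PI3K, by 1.70, TXNIP, which limits glucose uptake, by 1.30, and the cell cycle inhibitor CDKN1B by 0.79. With dBRD9A 3 of 13 were higher and 4 lower, near the 17.7% and 18.2% of all genes (1 and 6 with the shift of 0.2), among them the sestrins SESN1 (0.27, edgeR adjusted p = 0.0005) and SESN3 (-0.40, edgeR adjusted p = 8.02e-06). These genes answer to many inputs besides AKT, and no phosphorylation was measured.

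Of 15 regulators of IGF2 and H19 RNA, 1 was higher and 4 lower after knockdown (22.5% and 22.1% of all genes). CTCF, which insulates IGF2 from enhancers at the maternal copy, fell by 0.40 (edgeR adjusted p = 0.000126), DNMT1, which keeps DNA methylation through division, fell by 0.59 (edgeR adjusted p = 0.000125), and IGF2BP2 fell by 0.28. LIN28A was higher by 0.77. With dBRD9A 3 of 14 were higher and 7 lower (17.7% and 18.2% of all genes), or 0 and 11 with the shift of 0.2, and the mRNA-binding proteins IGF2BP2 and IGF2BP3 had the lowest p-values. IGF2BP2 had 150, 153 and 160 CPM with dBRD9A, against 202, 201 and 201 CPM with DMSO (-0.38, edgeR adjusted p = 2.79e-10), and IGF2BP3 had 63.5, 64.1 and 64.1 CPM with dBRD9A, against 88.5, 84.3 and 89.4 CPM with DMSO (-0.44, edgeR adjusted p = 2.89e-10). The groups did not overlap for either gene.

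Of 15 other imprinted genes tested, 5 were higher and 4 lower after knockdown (22.5% and 22.1% of all genes), with a median of -0.16. MEST, a paternally expressed gene, rose by 5.53 (edgeR adjusted p = 6.4e-11), GNAS by 0.39 and SLC22A18 by 0.63, while the growth inhibitor CDKN1C, also on 11p15, fell by 1.12 (edgeR adjusted p = 0.000181). With dBRD9A 5 were higher and 1 lower (17.7% and 18.2% of all genes), or 1 and 6 with the shift of 0.2, including GRB10, an adaptor that restrains insulin and IGF receptors (0.21, edgeR adjusted p = 0.00325), and PEG10 (-0.09, edgeR adjusted p = 0.0048). CYR61 and CTGF, matrix proteins with an IGFBP-like domain, were higher in both experiments: CYR61 by 0.60 with dBRD9A and 1.68 after knockdown, and CTGF by 0.65 and 3.10.

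Genes with the most similar profile were ranked by the root-mean-square difference of centred log2(CPM + 0.5) over the 15 libraries, for 11059 candidates whose mean level reached 5 CPM. For IGF2 they were INS-IGF2, which shares its reads (0.01), then BBC3 and EFNB3 (0.08 and 0.09). For IGFBP3 they were HEG1, CEMIP and NUAK2 (0.24 to 0.26), for IGFBP4 LBH, CREB3L1 and LMOD1 (0.33 to 0.40), and for IGFBP6 KIAA1522, RAB3IL1 and ANGPTL4 (0.18 to 0.21). For IGFBP2 GSTM4 (0.10) and COL6A2 (0.11) are given, for IGF1R HDLBP, DHTKD1 and DCTN2 (0.06 to 0.07), and for IGF2R FAM168A, CHD6 and KMT2C (0.07).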

How the data were processed

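RNA of the 15 samples was sequenced after the labelled treatments. The submitters' processing notes name STAR, featureCounts and hg19. The authors deposited raw counts per RefSeq transcript, 48104 rows per library. Tool versions and the treatment of strand: not given in the sources used here. The methods name spike-in controls, and the tables hold 0 spike-in rows. In the file of dBRD9A replicate 2, 4535 rows had a gene symbol broken into the count column, and the final word of that cell was taken for its value. A spreadsheet had turned symbols into dates in 80 rows, restored through transcript identifiers except for 2.

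Genes kept by filterByExpr (minimum count 10) within each experiment were tested with the robust quasi-likelihood test of edgeR 4.0.16 (R 4.3.3, TMM scaling, Benjamini-Hochberg adjustment over all genes). Knockdown is the mean of both hairpins minus shRenilla. A standard error is |log2 fold change|/√F. A call is an adjusted p under 0.05 at any fold. CPM use the scaling of all 15 libraries, while folds come from the fit of each experiment. The tests of dBRD9A, of knockdown by both hairpins and of the difference of effects were tried on simulated data. The simulated libraries all had the same spread, unlike the real ones. Tests of a single hairpin and between hairpins were not simulated. Genes outside the list were named by the lowest p in each list, up to 4 after knockdown and up to 2 with dBRD9A. Of the genes so named, 2 are not reported here. The members and lists were chosen with earlier results of these data known. The alternatives tried included DESeq2 1.42.0, voom in limma 3.58.1, 3 other scalings, a shift of the dBRD9A libraries, other filters, summed rows, a replicate block, 1 fit of all libraries and leaving out each library. Exact intervals and floors cover counting error only. Intervals of fold changes use the standard error of the edgeR fit, which includes the spread among libraries.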

Additional observations from a re-analysis of the deposited data

Results flagged for a closer look

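For 8 of 9 members, H19 and IGFBP5 included, the effect of dBRD9A (6 hr) differed from that of SS18-SSX1 knockdown (96 hr). The difference itself was tested with the 15 libraries fitted together. Of all 14560 genes so tested, 36.6% differed in either direction, 17.5% being higher and 19% lower. On the log2 scale, dBRD9A effect minus knockdown effect, the difference was -4.91 for IGFBP4, -2.89 for IGFBP3, -2.37 for IGFBP6, -0.56 for IGF2R, -0.43 for IGF2 and -0.38 for IGFBP2, with edgeR adjusted p-values of 2.08e-09 for IGFBP4 to 0.0215 for IGFBP2. The IGFBP2 call was lost without DMSO replicate 2 (edgeR adjusted p = 0.0704) or dBRD9A replicate 3 (0.0629). The fitted difference was -4.07 for H19 and -8.08 for IGFBP5, which are no bounds. Both genes had at most 3 counts in any dBRD9A or DMSO library and were tested only because of their counts in the hairpin libraries. Their calls therefore carry no weight in the count of 8. The H19 call was lost with the replicate block (edgeR adjusted p = 0.055) and without DMSO replicate 1 (0.0948) or 2 (0.203), and the IGFBP5 call without DMSO replicate 3 (0.0506). Agent, time and delivery differ together between the experiments and cannot be told apart.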

How the results depend on the processing

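After knockdown the members higher, H19 and IGFBP5 included, numbered 7 or 8 and the members lower 0 under all 19 alternatives tried, 7 being the count with a minimum count of 50, which drops IGFBP5 from the test. The calls of H19 and IGFBP5 carry no weight, because of the filter. Over the same settings, 2759 to 3854 of all genes were higher after knockdown and 2471 to 3657 lower. With dBRD9A, 2 members were higher and 1 lower. Members higher fell to 1 with a minimum count of 50 (4 members tested), with dBRD9A moved down by 0.2 and with all 15 libraries in 1 fit, and members lower went to 3 with the shift and to 0 with the single fit. Over all genes, 2423 were higher and 2483 lower with dBRD9A, against 519 and 8082 with the shift, 737 and 763 in the single fit, and 1600 higher with DESeq2. Between the hairpins DESeq2 called 1 member, IGFBP3, and 133 genes higher and 29 lower, against 17 and 4 with edgeR. With a library left out, members higher with shSS18-SSX1-2 ran from 6 to 8 and members with a lower dBRD9A effect from 6 to 8. H19 and IGFBP5 were included in both counts. Over the same fits, 2229 to 2970 of all genes were higher with shSS18-SSX1-2, and 2396 to 3140 had a lower dBRD9A effect. In the difference of effects, calls were lost for H19 (highest edgeR adjusted p = 0.203), IGFBP2 (0.0704) and IGFBP5 (0.0506).

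Values near 0 changed sign, none of them called except where named. With the shift, log2 values were -0.18 for IGF1R and -0.16 for IGFBP2 (both called), -0.0177 for IGF2 and -0.14 for IGFBP6, and the IGF1R difference of effects was -0.18. Upper quartile scaling gave IGF1R 0.01 after knockdown (0.0136), 0.0159 with shSS18-SSX1-1 and 0.0113 with shSS18-SSX1-2. Between the hairpins IGF1R was 0.00589 with DESeq2, 0.00600 with RLE scaling, 0.00439 with total counts and 0.00596 with a minimum count of 50, and IGFBP5 was -0.00332 with voom. With a library left out, IGF1R ran from -0.0325 to 0.0188 after knockdown, -0.0565 to 0.0445 with shSS18-SSX1-1, -0.0384 to 0.0287 with shSS18-SSX1-2, -0.0523 to 0.0489 between hairpins, -0.00665 to 0.0383 with dBRD9A and -0.00514 to 0.0481 in the difference of effects. IGFBP2 ran from -0.00435 to 0.0903, IGFBP4 from -0.0123 to 0.362 and IGFBP6 from -0.0866 to 0.158 with dBRD9A, and between hairpins IGFBP4 from -0.134 to 0.0143 and IGFBP5 from -0.107 to 0.257. The cause was not tested.

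Replicate numbers did not pair the libraries, since same-numbered deviations correlated at -0.108 to 0.00398 between dBRD9A and DMSO and at -0.614 to 0.467 between the hairpin groups. Some libraries with different numbers were more alike, shSS18-SSX1-1 replicate 3 and shSS18-SSX1-2 replicate 2 correlating at 0.688. A block by replicate number does not model such links. With the replicate block the members higher and lower numbered 8 and 0 after knockdown and 2 and 1 with dBRD9A, IGFBP5 between hairpins was -0.0122, and the H19 difference of effects lost its call (edgeR adjusted p = 0.055). The filter on low counts, at its minimum of 10, left 7 members tested with dBRD9A, against 9 with no filter.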
